A study of Mus musculus with 4 samples.

Results

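The genes of the mitochondrial ATP synthase were examined in tibialis anterior (TA) muscle, which lifts the foot, of young and old mice. They were the rows of the 4 per-sample expression tables whose gene symbol was *Atp5a1*, *Atp5b*, *Atp5c1*, *Atp5d*, *Atp5f1*, *Atp5g1*, *Atp5g3*, *Atp5h*, *Atp5j* or *Atp5o*. All 10 members had a row, out of 20340 gene labels with a value in every sample, and all 10 reached at least 1 FPKM in at least 2 samples, the condition for testing. FPKM scales sequenced fragments to the length of the transcript and the size of the library, so levels can be compared between genes per length.

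ATP synthase makes most of the ATP of a muscle fiber at rest and during endurance work. Protons that the respiratory chain has pumped out of the mitochondrial matrix flow back through a ring of c subunits in the inner membrane, the ring turns a central shaft, and the turning shaft drives ATP formation in a catalytic head. A peripheral stalk holds the head still against the ring. *Atp5a1* and *Atp5b* encode the alpha and beta subunits of the head, *Atp5c1* and *Atp5d* the gamma and delta subunits of the shaft, *Atp5g1* and *Atp5g3* the c subunit, and *Atp5f1*, *Atp5h*, *Atp5j* and *Atp5o* the b, d, F6 and OSCP subunits of the stalk.

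All samples were from wild type C57BL/6 mice, and the labels name no treatment. Old 1 and Old 2 were from mice aged 20 months, and Young 1 and Young 2 from mice aged 3 months. The methods of the study state that the sex of the mice was chosen at random, and the sex of each sample is not given. The labels list 2 samples per age although the design text gives 3, and neither says whether a sample is an individual animal or a pool. The study calls the samples of an age independent experiments, but with no animals named, p-values measure the spread between these samples, which may be technical.

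The samples of one age were on different scales. Summed FPKM was 698130 in Old 1 and 226747 in Old 2, and 251294 in Young 1 and 739302 in Young 2, so Old 1 was nearest in scale to Young 2 and Old 2 to Young 1. Across the 1041 genes at 30 to 100 FPKM, log2 ratios of Old 1 to Old 2 had a robust SD of 0.049, whereas those of Old 1 to Young 2 had one of 0.384. Whether the samples of one age are separate libraries was not tested, so the pairs of like scale may not be independent replicates. Muscle markers were high, with myoglobin (*Mb*) at 1092 to 5739 FPKM and the shared row of desmin (*Des*) and *Speg* at 541 to 2379 FPKM, while *Ckm* was listed at 0 in every sample and *Acta1* was not analysed here. Slow-fiber markers stood apart by age. The 6 of them summed to 1282 FPKM in Old 1 and 461 in Old 2, against 35.9 in Young 1 and 89.0 in Young 2, and alpha-globin (*Hba-a1* and *Hba-a2* together) was 607 and 277 FPKM against 39.5 and 88.6 FPKM. Of the adipocyte markers, *Fabp4* was 313 and 163 against 181 and 345 FPKM, which is 90.6% and 89.9% of young in the pairs of like scale. In the same pairs *Adipoq* was at 197% and 217%, *Plin1* at 136% and 148%, and *Lep* at 317% and 645% of young. These percentages rest on low values, with *Plin1* at 0.42 to 2.18 FPKM. *Lep*, at 0.057 to 1.42 FPKM, was too low to be tested. The collagens *Col1a1* (10.6 and 5.45 against 23.2 and 46.3 FPKM) and *Col3a1* (16.4 and 8.58 against 23.4 and 48.1 FPKM) had both old samples below both young samples. The other fibroblast markers were higher in old in the pairs of like scale, *Dcn* at 124% and 121% and *Pdgfra* at 116% and 118% of young. Of the fast-fiber markers, *Tnnt3* was listed at 0 in the old samples and was 4465 and 7509 FPKM in the young samples, and *Myh1* was 1318 and 156 FPKM in the old samples and listed at 0 in the young samples. *Tnni2* was 21600 and 3862 FPKM in Old 1 and Old 2 against 3268 and 11528 FPKM in Young 1 and Young 2. In the pairs of like scale *Tnni2* was at 187% and 118% of young and *Myh2* at 125% and 97.3%. *Myh4* was listed at 0 in every sample, and *Atp2a1* was not analysed here. Whether a listed 0 is a measured absence of mRNA was not tested, so *Tnnt3* and *Myh1* are not read as differences by age. Summed leukocyte markers were 0.728 to 5.67 FPKM. The part of these markers in the values below was not tested. In whole muscle, a change in the mix of fibers cannot be told apart from a change in mRNA per fiber.

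ATP synthase genes were among the most highly expressed genes of the muscle and were lower, as deposited, in the old sample of each pair of like scale, while quantile normalization turned the log2 difference of *Atp5a1*, *Atp5h* and *Atp5o* above 0. *Atp5b* was the highest and *Atp5f1* the lowest of the 9 members above 0 in every sample. At most 35 of 10266 tested genes were above *Atp5b* in any sample, and at most 139 were above *Atp5f1*. In 9 of 9 members Old 1 was below Young 2 and Old 2 below Young 1, where 48.6% of the 9293 tested genes above 0 in all samples did the same. The old value was 42.3% to 89.6% of the young value over both pairs, with *Atp5g1* at the low end and *Atp5h* at the high end.

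In the fit of the deposited values, none of these differences passed the test. With limma on log2(FPKM + 1), 0 of 10 members passed an adjusted p of 0.05 in either direction, where 0.127% of 10266 tested genes were called lower and 0.175% higher in old muscle. No member had an unadjusted p under 0.05 either, the smallest being 0.327, where 42 tested genes were lower and 35 higher at that level. The standard errors of the members were 0.93 to 1.36 on the log2 scale, and each member's standard error was larger than its own difference. The median standard error over all tested genes was 0.98, since this fit did not remove the difference in scale between samples of one age. It could therefore hardly call differences of the size seen in the members. An exact permutation test of 2 samples against 2 cannot give a p below 0.333. The median log2 difference, old minus young, was -0.43 over the 10 members, and -0.48 without *Atp5d*, against -0.01 over all tested genes.

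The count of members called was higher with the pairs of like scale as a block, and with scaling combined with a stricter filter, a combination chosen after the values had been seen, but not with scaling alone. With the pairs of like scale as a block, limma called 9 of 10 members lower (all except *Atp5d*), where 32.9% of tested genes were called lower and 27.4% higher. These pairs were matched on the scale of the values and not by the design. Their p-values measure how far the 2 old-to-young differences are apart, a spread that may be technical. Median scaling over the same genes called 0 of 10 members, where 0.127% of tested genes were called lower and 0.117% higher. With each sample scaled to the same median and genes kept only at 1 FPKM or more in all 4 samples, it called 4 of 9 members lower, where 17.7% of 7228 tested genes were called lower and 15.8% higher. These 4 were *Atp5g1* (adjusted p = 0.0076), *Atp5g3* (adjusted p = 0.015), *Atp5f1* (adjusted p = 0.025) and *Atp5o* (adjusted p = 0.028). Quantile normalization, which gives all samples the same distribution of values, called 0 of 10 members in either direction, where 1.83% of tested genes were called lower and 1.16% higher. It brought the median of the members to -0.07 and turned *Atp5a1* to 0.065, *Atp5h* to 0.11 and *Atp5o* to 0.010. *Atp5g1* stayed at -0.97 under it. Quantile normalization with the filter on all 4 samples called 1 of 9 members lower, *Atp5f1*, where 20.7% of 7228 tested genes were called lower and 18.9% higher.

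**Figure D1:**
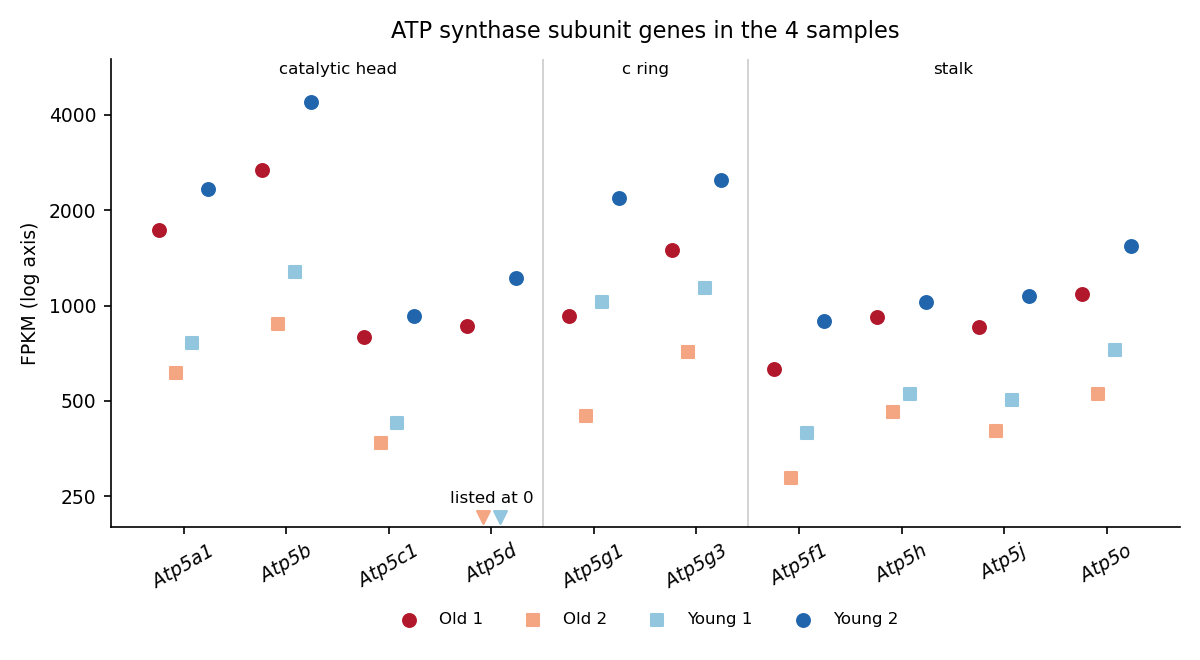
FPKM on a log axis of the 10 members in each sample, grouped by place in the enzyme (*Atp5c1* and *Atp5d* of the shaft are drawn with the head), with circles for Old 1 and Young 2, squares for Old 2 and Young 1, and triangles for *Atp5d* listed at 0. Each old point above 0 lies below the young point of the same shape, as deposited, and *Atp5g1* has both old points below both young points, while quantile normalization turned the log2 difference of *Atp5a1*, *Atp5h* and *Atp5o* above 0.

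The 2 c ring members had the largest log2 differences of the 10 members as deposited, while after quantile normalization *Atp5b*, at -0.43, was beyond *Atp5g3*, at -0.37. *Atp5g1* (chromosome 11, 96068903 to 96075694, minus strand, mm10) was 923 FPKM in Old 1 and 448 in Old 2, against 1026 in Young 1 and 2181 in Young 2. Both old samples were below both young samples, which held for no other member above 0 in all samples and for 1.86% of 9293 tested genes, while the reverse, old wholly above young, held for 0 members and 1.61% of tested genes. The old value was 42.3% and 43.6% of the young value in the pairs of like scale, and the log2 difference was -1.22 with a standard error of 1.24 (limma, adjusted p = 1.00). *Atp5g3* (chromosome 2, 73908450 to 73911294, minus strand) was 1499 and 715 FPKM in the old samples, against 1133 and 2491 FPKM in Young 1 and Young 2. Its groups overlapped, since Old 1 was above Young 1. Old was 60.2% and 63.1% of young in the pairs, with a log2 difference of -0.70 and a standard error of 1.29 (limma, adjusted p = 1.00).

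The sequences upstream of the 2 c ring members and of *Atp5b*, which held the largest log2 differences among the members as deposited, are shown because they share a short motif. They were taken from RefSeq (GRCm38.p6), on the strand of the gene and ending at the base before its start, for *Atp5g1* the most upstream start of the gene. Capitals mark the letters CCAAT, the box bound by the factor NF-Y and searched for after the promoters had been read, or its reverse complement ATTGG, and in *Atp5g3* the ERR motif AAGGTCA as its reverse complement TGACCTT.
*Atp5g1*, chr11:96075695-96075881, minus strand: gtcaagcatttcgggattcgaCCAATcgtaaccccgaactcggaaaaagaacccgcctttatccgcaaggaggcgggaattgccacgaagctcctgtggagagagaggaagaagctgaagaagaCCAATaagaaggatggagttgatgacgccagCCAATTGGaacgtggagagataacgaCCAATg
*Atp5g3*, chr2:73911327-73911576, minus strand: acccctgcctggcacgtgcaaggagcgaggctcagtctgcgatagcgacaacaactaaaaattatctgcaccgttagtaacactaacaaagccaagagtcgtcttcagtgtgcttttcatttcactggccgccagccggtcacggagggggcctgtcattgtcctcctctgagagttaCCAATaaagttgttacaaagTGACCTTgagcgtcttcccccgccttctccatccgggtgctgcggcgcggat
*Atp5b*, chr10:128083057-128083306, plus strand: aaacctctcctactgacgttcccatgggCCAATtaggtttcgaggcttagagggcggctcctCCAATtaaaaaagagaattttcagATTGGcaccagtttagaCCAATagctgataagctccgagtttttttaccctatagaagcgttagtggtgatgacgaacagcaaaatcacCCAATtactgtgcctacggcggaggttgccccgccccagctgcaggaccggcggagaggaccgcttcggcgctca
Over 250 bases upstream, *Atp5g1* and *Atp5b* held 5 matches each and *Atp5g3* held 1, and in *Atp5g1* a pair of matches on opposite strands overlap. CCAAT on either strand was present for 5 of the 9 members with a promoter in the table and for 37.5% of 27025 genes. The other members with it were *Atp5h*, with 2 matches, and *Atp5c1*, with 1, which had the smallest log2 differences of the members above 0 in all samples.

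The other motifs searched were found in 0 to 3 of the 9 members. Each was looked for on both strands of the same windows. The NRF1 motif GCGCATGCG was found in 0 of 9 members and 1.64% of genes, the GABP motif CCGGAAG in 2 of 9 (*Atp5h* and *Atp5j*) and 7.83%, and the SP1 motif GGGCGG in 3 of 9 and 35.4%. AAGGTCA was found in 1 of 9 members, *Atp5g3*, 52 bases before its start, and in 4.70% of genes. The YY1 motif AAGATGGCG was found in 1 of 9, *Atp5j*, and in 0.711% of genes. A match describes the letters of the window and does not show that a factor binds there.

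The share of each c subunit gene within a sample does not depend on a factor common to all its genes. *Atp5g1*, *Atp5g2* and *Atp5g3* encode the same mature c subunit with different import sequences. *Atp5g1* held 30.3% of their summed FPKM in Old 1 and 30.2% in Old 2, against 39.9% in Young 1 and 39.9% in Young 2. *Atp5g2* held 20.6% and 21.5% in old against 16.0% and 14.6% in young muscle. *Atp5g3* held 49.1% and 48.3% against 44.1% and 45.5%. For each of the 3 genes the old and young samples did not overlap, and the shares are given as a description with no test. They add up to 100%, so they are not 3 separate results. How often shares of other genes separate by age was not computed. The 2 old samples differed by little but scale, with a robust SD of 0.049 at 30 to 100 FPKM, against 0.384 for Old 1 to Young 2. The last 228 coding bases of *Atp5g1* and *Atp5g3* were 79.8% identical, with a longest identical stretch of 11 bases, and those of *Atp5g1* and *Atp5g2* were 85.1% identical, with a longest stretch of 21 bases, in the transcripts of the GENCODE annotation.

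**Figure D2:**
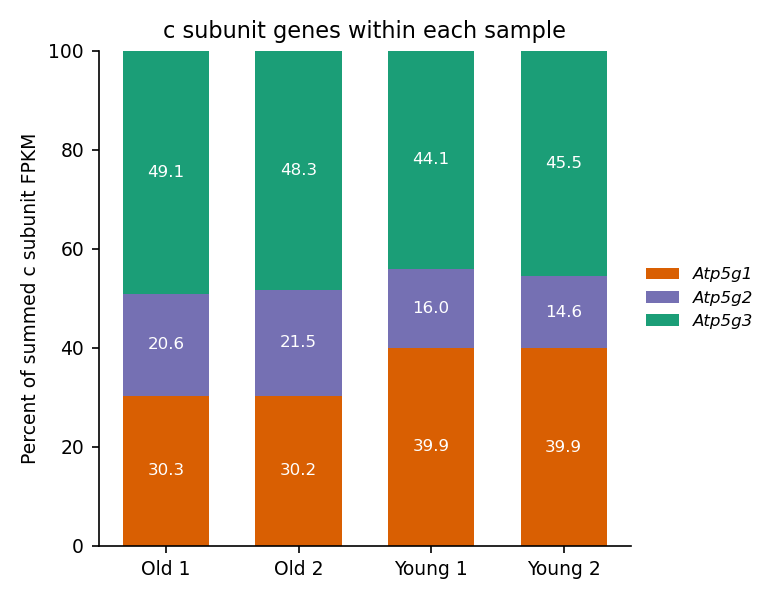
Percent of the summed FPKM of the 3 c subunit genes held by *Atp5g1*, *Atp5g2* and *Atp5g3* in each sample, as stacked bars that reach 100. *Atp5g1* takes 30.2% to 30.3% in the old samples and 39.9% in the young samples.

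Set against the gamma subunit of the same sample, the c subunit was lower in old muscle. This depends on the reference, since *Atp5c1* had one of the smallest log2 differences of the members, -0.21. Set against *Atp5b* or *Atp5a1* instead, the summed c subunit overlapped between the ages. The summed c subunit FPKM was 3.83 times that of *Atp5c1* in Old 1 and 4.02 times in Old 2, against 6.06 times in Young 1 and 5.92 times in Young 2. *Atp5g1* was 1.16 and 1.22 times *Atp5c1* in the old samples against 2.42 and 2.36 times in the young samples. The ratio of *Atp5h* to *Atp5c1* overlapped between the ages, at 1.16 and 1.25 in old and 1.24 and 1.11 in young muscle. How often ratios of other genes separate by age was not computed, so these ratios and those given below are a description with no test.

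The subunits of the catalytic head had the largest differences in scale between samples of one age. *Atp5b* (chromosome 10, 128083307 to 128090388, plus strand), which carries the catalytic sites, was 2677 FPKM in Old 1 and 874 in Old 2, against 1277 in Young 1 and 4385 in Young 2. Old 1 was above Young 1, so the groups overlapped. The old value was 61.0% and 68.5% of the young value in the pairs, with a log2 difference of -0.63 and a standard error of 1.36 (limma, adjusted p = 1.00). *Atp5a1* (chromosome 18, plus strand), the alpha subunit, was 1732 and 611 FPKM in Old 1 and Old 2 and 763 and 2333 FPKM in Young 1 and Young 2. The groups overlapped in the same way, old was 74.3% and 80.1% of young, and the log2 difference was -0.37. Old 1 was 3.06 times Old 2 for *Atp5b* and 2.84 times for *Atp5a1*, where the other members above 0 in both samples had at most 2.20 times. The ratio of *Atp5b* to *Atp5a1* was 1.55 and 1.43 in old against 1.67 and 1.88 in young muscle.

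The shaft subunits were measured unequally well. *Atp5c1* (chromosome 2, 10056027 to 10092701, minus strand), the gamma subunit, was 796 and 368 FPKM in Old 1 and Old 2 against 424 and 925 FPKM in Young 1 and Young 2. Old was 86.0% and 86.7% of young, and the log2 difference was -0.21, among the smallest of the members. *Atp5d*, the delta subunit, was 859 FPKM in Old 1 and 1225 in Young 2 and was listed at 0 in Old 2 and Young 1. Its row covers chromosome 10 from 79697305 to 80369637, a range shared with 45 other rows, whereas the annotated gene runs from 80138632 to 80145818 on the plus strand. All 45 other rows were at 0 in Old 2 and Young 1 as well, while 42 had a value in Old 1 and 44 in Young 2. The log2 difference of *Atp5d*, -0.26 with a standard error of 0.93, therefore rests on one pair, in which old was 70.1% of young.

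The 4 stalk genes lay at 70.4% to 89.6% of young. *Atp5f1* (chromosome 3, 105942863 to 105987423, minus strand), the b subunit, was 630 and 286 FPKM in Old 1 and Old 2 against 397 and 895 FPKM in Young 1 and Young 2. Its old values were 70.4% and 72.2% of young, with a log2 difference of -0.49 and a standard error of 1.14 (limma, adjusted p = 1.00). *Atp5o* (chromosome 16, 91925223 to 91931630, minus strand), the OSCP subunit that joins the stalk to the head, was 1090 and 526 FPKM against 723 and 1545 FPKM. Old was 70.5% and 72.8% of young, and the log2 difference was -0.48. *Atp5j* (chromosome 16, 84827871 to 84863778, minus strand), subunit F6, was 853 and 401 FPKM against 502 and 1073 FPKM. Its log2 difference was -0.33, with old at 79.5% and 79.9% of young. *Atp5h* (chromosome 11, 115415697 to 115419919, minus strand), the d subunit, was 922 and 460 FPKM against 527 and 1029 FPKM. It had the smallest log2 difference of the members, -0.18, with old at 89.6% and 87.3% of young. In all 4 genes Old 1 was above Young 1, so the ages overlapped in the deposited values.

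**Figure D3:**
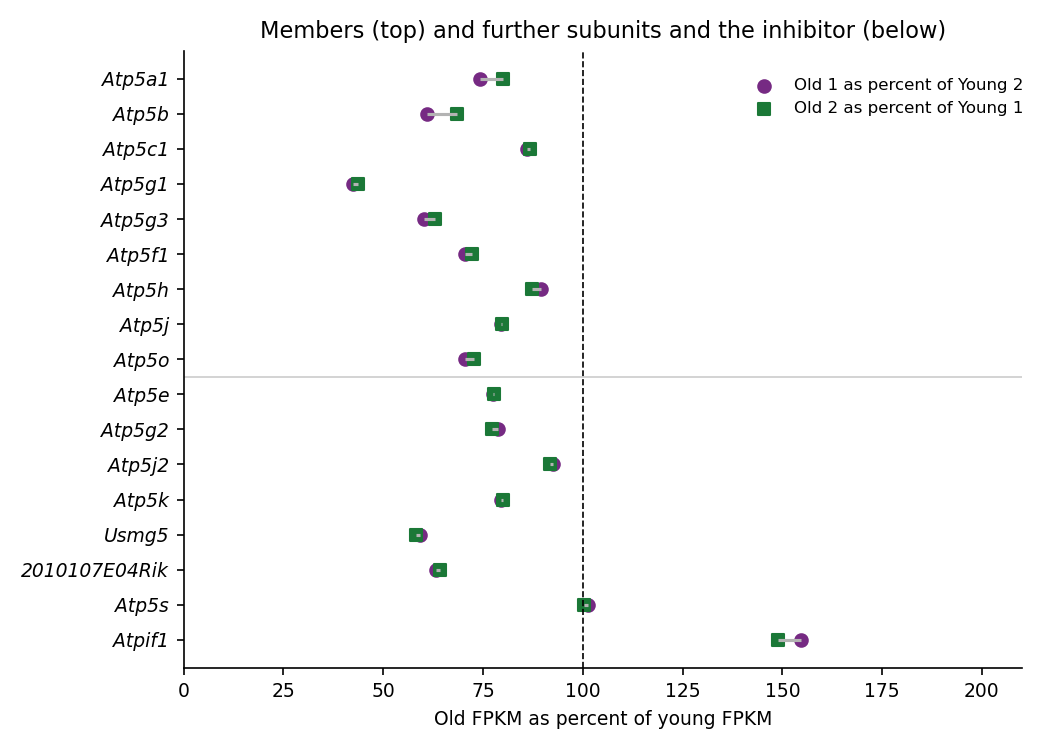
FPKM of Old 1 as a percent of Young 2 (circles) and of Old 2 as a percent of Young 1 (squares) for the 9 members above 0 in all samples, above the grey line, and for further subunits and the inhibitor below it, with 100% dashed. All 9 members lie left of 100% in both pairs, *Atp5g1* farthest, and *Atpif1* lies at 149% and 155%. Under quantile normalization *Atp5a1*, *Atp5h*, *Atp5o* and *Atp5j2* had log2 differences above 0.

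Further subunits outside the 10 members were lower in the same pairs, except *Atp5s*, and the inhibitor of the enzyme was higher. Of 9 genes listed, 8 had a value and *Atp5l* was not analysed here. None of the 8 passed in the fit of the deposited values, and with the pairs as a block 6 were called lower and 1 higher (limma), where 32.9% of tested genes were called lower and 27.4% higher. *Usmg5*, a small membrane subunit also known as DAPIT, was 908 and 469 FPKM in the old samples against 806 and 1536 FPKM in Young 1 and Young 2, which is 59.1% and 58.2% of young. *2010107E04Rik*, a small membrane-bound proteolipid of the enzyme, was 63.3% and 64.1% of young. *Atp5e* of the shaft was at 77.5% and 77.7%, *Atp5g2* at 78.7% and 77.3%, and *Atp5k* of the membrane part at 79.5% and 80.0%. *Atp5j2* was at 92.6% and 91.7%, with a log2 difference of -0.12 that quantile normalization turned to 0.22. *Atp5s* was at 101% and 100.3%.

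*Atpif1* encodes the protein that stops the enzyme from splitting ATP. It was 46.6 FPKM in Old 1 and 21.1 in Old 2, against 14.2 in Young 1 and 30.1 in Young 2. The groups overlapped, since Old 2 was below Young 2. Old was 155% and 149% of young, and the log2 difference was 0.58 (limma, adjusted p = 1.00 as deposited, 0.0066 with the pairs as a block and 0.047 after quantile normalization). Its ratio to *Atp5c1* was 0.0585 and 0.0574 in the old samples against 0.0334 and 0.0326 in the young samples.

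The genes that build the enzyme and move its substrates were also compared, with no call among them in the fit of the deposited values. Of 6 assembly factors, 5 were called lower with the pairs as a block (32.9% of tested genes were), and the median log2 difference was -0.41. *1110001J03Rik*, named *Fmc1* in newer annotation, was 216 and 111 FPKM in old against 187 and 354 FPKM in young muscle, with a log2 difference of -0.73. *Tmem70*, which helps to build the c ring, was at -0.51, *Oxa1l*, an inner membrane insertase, at -0.48, and *Atpaf2*, which binds the alpha subunit, at -0.33. *Atpaf1*, which binds the beta subunit, was at 0.03 and *Tmem242* at -0.09.

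Of 10 transport and energy-transfer genes, 6 were tested and 5 were called lower with the pairs as a block (32.9% of tested genes were), with a median of -0.50. *Ckmt2*, the mitochondrial creatine kinase of striated muscle, was 782 and 344 FPKM in old against 846 and 2318 FPKM in young muscle, with both old samples below both young samples. Its log2 difference was -1.43, with old at 33.7% and 40.6% of young. *Slc25a3*, the carrier that brings phosphate to the matrix, was 618 and 279 FPKM against 504 and 1159 FPKM, with a log2 difference of -0.88. The log2 differences of *Ak3*, *Vdac2* and *Vdac1* were -0.59, -0.41 and -0.21, and quantile normalization turned *Vdac1* to 0.24. The ADP/ATP carriers *Slc25a4* and *Slc25a5* were not analysed here.

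Regulators of mitochondrial genes lay on both sides of 0. Of 12 listed, 11 were tested, none passed as deposited, and with the pairs as a block 4 were called lower and 2 higher, where 32.9% of tested genes were called lower and 27.4% higher. The median log2 difference was -0.05. *Ppargc1a*, the coactivator PGC-1alpha, was 9.47 and 4.73 FPKM in old against 8.34 and 15.8 FPKM in young muscle, with a log2 difference of -0.69. *Esrra*, the receptor ERRalpha that works with it, was at -0.63 and *Ppara* at -0.75. *Ppargc1b* was at 0.34, *Yy1* at 0.18, *Tfam*, which maintains mitochondrial DNA, at 0.17, *Nrf1* at -0.05, *Gabpb1* at -0.09, *Esrrg* at -0.20 and *Esrrb* at -0.02.

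Respiratory chain genes had medians on the same side as the members, and the vacuolar ATPase did not. The 32 tested genes of complex I had a median log2 difference of -0.37 and the 19 of complexes II to IV one of -0.59, with 0 called as deposited and 29 and 18 called lower with the pairs as a block, where 32.9% of tested genes were called lower. The 12 tested genes of the vacuolar ATPase, a related proton pump of lysosomes that splits ATP, had a median of 0.03, with 5 called lower and 5 higher with the pairs as a block, where 27.4% of tested genes were called higher. Quantile normalization gave -0.30 for complex I, -0.31 for complexes II to IV and 0.03 for the vacuolar ATPase. These are counts and medians of lists, and a difference between the members and another list was not tested.

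**Figure D4:**
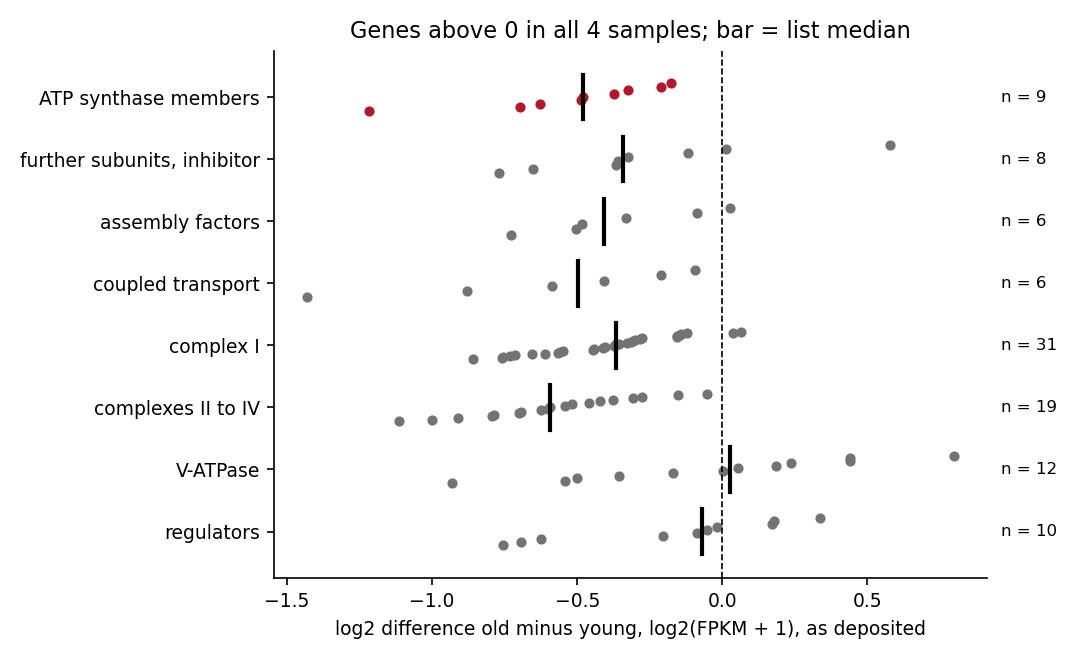
Log2 difference old minus young on log2(FPKM + 1), as deposited, for genes above 0 in all 4 samples in each list, with 1 point per gene and a bar at the median. The 9 members run from -1.22 to -0.18 around -0.48, and the vacuolar ATPase lies on both sides of 0, while quantile normalization brings the members' median to -0.06.

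Part of the members lie in a range of levels, 1000 to 3000 FPKM, in which most genes were lower in old muscle as deposited. Of the 9293 tested genes above 0 in all samples, 51.7% had a log2 difference below 0. Among the 143 genes at 300 to 1000 FPKM, which include 5 members, the median log2 difference was -0.11 and 78 were below 0. Among the 40 genes at 1000 to 3000 FPKM, which include *Atp5a1*, *Atp5b*, *Atp5g1* and *Atp5g3*, the median was -0.30 and 28 were below 0. These 40 also hold *Atp5e*, *Atp5k*, *2010107E04Rik* and respiratory chain genes, so the median of this band is partly that of the members and related genes. The scale between samples also differed there, with a median ratio of Old 1 to Old 2 of 2.67 at 1000 to 3000 FPKM against 2.05 at 300 to 1000 FPKM and 1.97 at 30 to 100 FPKM. Its part in the values of the members was not tested.

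**Figure D5:**
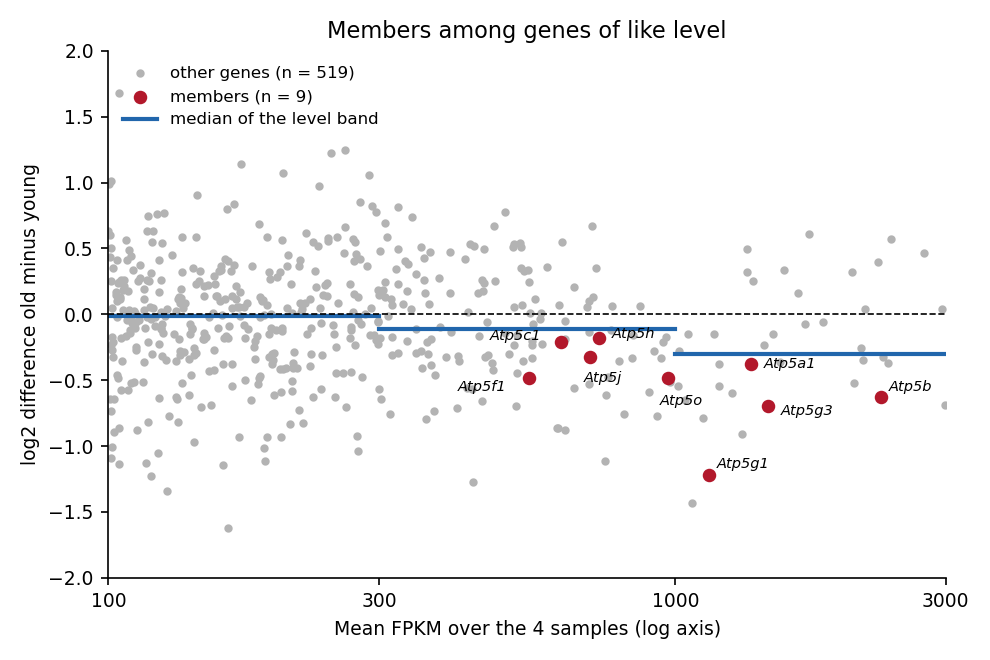
Log2 difference old minus young, as deposited, against the mean FPKM of the 4 samples on a log axis for the 528 genes at 100 to 3000 FPKM and above 0 in all samples, with members in red and the median of each level band in blue. All 9 members lie below their band's median, and 6 other genes fall outside the drawn range, while quantile normalization turned *Atp5a1*, *Atp5h* and *Atp5o* above 0.

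The profiles of the members over the samples were then compared. Each gene's log2(FPKM + 1) over the 4 samples was centred on its mean and compared with the median profile of the members. *Atp5f1* was nearest to that profile, at a distance of 0.10. *Atp5d*, with 2 values at 0, was farthest, at 8.76, and *Atp5g1* was the farthest of the others, at 0.77. Of 3788 other genes with a mean of at least 10 FPKM, the nearest were *A2ld1* at 0.056, *Tra2a* at 0.059, *Slc48a1* at 0.064, *Naa38* at 0.088 and *Mdh2* at 0.090. Of these, *Mdh2*, malate dehydrogenase of the citric acid cycle, was 872 and 397 FPKM in the old samples against 539 and 1241 FPKM in Young 1 and Young 2. A profile over 4 samples is a description of these samples.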

How the data were processed

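mRNA-seq was performed on TA muscle in 2 samples per age. The authors trimmed reads, removed PCR duplicates, aligned with TopHat2 (2.0.10 in the submitters' processing notes) to mm10 with the RefSeq genes as guide, ran Cufflinks on each sample separately, and deposited FPKM values for every locus. The paper names a stranded kit and the labels a kit without that word.

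The deposited values hold no counts, whole reads could not be read off the lowest values, and the depth is unknown, so no count test was run. The 1 incomplete last line of each table was left out, 20605 loci had a value in all 4 samples, and rows of one symbol were summed. The values break off at that line, so genes that would come later, such as *Atp5l* on chromosome 9, are missing. All counts, shares and list medians given here leave such genes out. Old and young samples were compared on log2(FPKM + 1) in R 4.3.3 by limma 3.58.1 (empirical Bayes with a trend, two-sided, Benjamini-Hochberg over the 10266 genes that reached 1 FPKM in 2 or more samples, threshold 0.05), and the fit was tested on simulated data. Values of 0 were kept as listed. Starts were made 1-based.

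Same-numbered samples deviated in opposite directions (correlation -0.885 over 10266 genes), so the numbers do not pair the samples. The crossed pairs of like scale (Old 1 and Young 2, Old 2 and Young 1) were used as a block in an alternative. The others were median scaling, quantile normalization, other filters and pseudocount, the highest locus per symbol, no trend, the replicate number as a block, and leaving out each sample. Median scaling and quantile normalization with a filter on all samples, and the members without *Atp5d*, were added after the values were seen.

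The members and gene lists were chosen with earlier results of these data known. Named genes are the members, genes of the lists of further subunits, assembly, transport and regulators, lists of at most 6 genes, and the 5 nearest profiles, and some genes of these lists are not reported here. Promoters were from RefSeq (GRCm38.p6), which had 9 of 10 members. Python 3.11.15, pandas 2.3.3 and matplotlib 3.10.9 were used.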

Additional observations from a re-analysis of the deposited data

How the results depend on the processing

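Scaling alone did not change the call on the members, and the block of like-scale pairs, or scaling together with a stricter filter, did. Of 10 members, 0 passed as deposited, and the count was 0 in either direction for limma under median scaling, quantile normalization, a pseudocount of 0.1, other filters alone, the highest locus per symbol and no trend. It was 9 with the pairs of like scale as a block, 4 with median scaling and 1 (*Atp5f1*) with quantile normalization when only genes at 1 FPKM or more in all 4 samples were kept, 2 choices changed together. The median over the members stayed below 0 under all of these, at -0.07 after quantile normalization and -0.13 with the filter added. Quantile normalization turned *Atp5a1* to 0.065, *Atp5h* to 0.11 and *Atp5o* to 0.010, and *Atp5h* was at 0.064 with the filter added.

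Over all tested genes, 31 passed as deposited. The count was 6 with at least 1 FPKM in all 4 samples, 0 with no filter, 307 after quantile normalization, 6186 with the pairs as a block, 2421 with median scaling and the filter, and 2859 with quantile normalization and the filter. With the replicate number as a block it was 5, and 0 members passed. These samples share only a number, since same-numbered samples deviated in opposite directions. Without 1 sample the count was 3 to 8.

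Leaving out 1 sample left an age with 1 sample, assumed to vary like the other, and moved the members with the scale of what remained. The median over the members was -1.05 without Old 1 and -1.13 without Young 1, and 0.20 without Old 2 and 0.22 without Young 2. No member passed in any of these, and the range over the 4 fits (2 for *Atp5d*) crossed 0 for *Atp5a1* (-1.18 to 0.43), *Atp5b* (-1.52 to 0.26), *Atp5c1* (-0.77 to 0.35), *Atp5d* (-5.39 to 4.62), *Atp5f1* (-1.07 to 0.10), *Atp5h* (-0.68 to 0.32), *Atp5j* (-0.87 to 0.22) and *Atp5o* (-1.03 to 0.068), but not for *Atp5g1* (-1.76 to -0.67) and *Atp5g3* (-1.27 to -0.13). Only FPKM were given, so what depth limits is unknown.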

Other observations

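Genes that share a listed range or a start region with some members, or with the further subunit *Usmg5*, were at 0 in the same samples as *Atp5d*. *Kin*, which starts 102 bases from *Atp5c1* on the other strand, was 18.3 FPKM in Old 1 and 10.3 in Young 2 and was listed at 0 in Old 2 and Young 1. The row of *Ovgp1* and *Wdr77*, in the range of *Atp5f1*, was 41.4 FPKM in Old 1 and 61.3 in Young 2, and *Gabpa*, which starts 148 bases from *Atp5j* and encodes a subunit of the GABP factor, was 18.7 and 16.6 FPKM. *Taf5*, in the range of *Usmg5*, was 2.83 and 3.18 FPKM. *Mir677*, in the range of *Atp5b*, was listed at 0 in all 4 samples. All of these rows were at 0 in Old 2 and Young 1, where 846 and 824 of 10266 tested genes were at 0, while *Atp5c1*, *Atp5f1*, *Atp5j* and *Usmg5* in the same ranges had values in all 4 samples.

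Genes that shape the cristae, the folds of the inner membrane in which ATP synthase sits, had a median log2 difference of -0.01 over 8 tested genes, with 4 called lower and 2 higher in limma with the pairs of like scale as a block, where 32.9% of tested genes were called lower and 27.4% higher, and 0 called as deposited.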
